A study of Sus scrofa with 8 samples.

Results

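The classical miR-15, miR-16, miR-195 and miR-497 family was examined on miRNA arrays of pig corpora lutea, glands that arise from ovulated follicles and secrete progesterone. Members were all array targets whose name, without the species prefix, begins with miR-15, miR-16, miR-195 or miR-497, with any letter or arm suffix. This gave 10 of the 686 miRNA targets on the array. Of these, 5 are porcine entries (ssc-miR-15a, ssc-miR-15b, ssc-miR-16, ssc-miR-195 and ssc-miR-497), which are the guide strands of the family. The other 5 are 3p entries designed on other species, hsa-miR-15a-3p, hsa-miR-15b-3p, hsa-miR-16-2-3p and hsa-miR-497-3p on human and mmu-miR-16-1-3p on mouse sequences. Luteal tissue came from crossbred gilts of 1 commercial herd, aged 6 to 8 months, and was taken after death on day 14. In the pregnant group (4 arrays) the gilts had been inseminated 12 and 24 h after the onset of their second estrus was detected, and in the cyclic group (4 arrays) they had not been inseminated. Each array held the RNA of 1 sample, labelled with the dye Cy3, and samples were individual replicates per the labels.

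Members of this family share their seed, the stretch at the 5′ end of a miRNA that pairs with target mRNAs. Through it they repress cyclins and cyclin-dependent kinases that drive cells into division, and BCL2, which protects cells from apoptosis. In humans, loss of the miR-15a and miR-16 locus is a known lesion of chronic lymphocytic leukaemia, and in mice miR-195 restrains the division of heart muscle cells after birth. In cyclic pigs the corpus luteum is close to regression by this stage, while in pregnancy it is kept. In the RefSeq annotation of the pig genome (assembly Sscrofa11.1, used here for names and neighbours only), MIR15A lies beside 1 miR-16 gene (MIR16-2, also listed as MIR16-1). MIR15B lies beside the other (MIR16-1, also listed as MIR16-2), and MIR15B lies inside SMC4, a gene for a condensin subunit that compacts chromosomes. MIR195 and MIR497 are neighbours inside the lncRNA LOC102161115. The array target ssc-miR-16 therefore reads the product of both miR-16 genes.

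The 8 arrays differed in signal, with 181 (pregnant replicate 4) to 223 (cyclic replicate 4) targets detected. Pregnant replicate 4 also had the lowest 75th percentile of intensity (189, against up to 316 on cyclic replicate 4) and the lowest share of spots well above background. A negative control spot read 51287 on cyclic replicate 3. Between 22.8% and 28.8% of the 13720 miRNA spots of an array were well above background, and 0 were saturated. Slide 1 carried pregnant replicates 1 and 2, slide 2 carried cyclic replicates 1 and 2, and slide 3 carried replicates 3 and 4 of either group. Slide 1 was scanned on another day than slides 2 and 3. Of the tissue markers, the gonad-enriched miR-202-3p was detected on 8 arrays and its other strand, miR-202-5p, on 5. By contrast, 0 of 12 entries for liver, muscle and neuronal miRNAs were detected on any array. Levels are given as log2 of the spot signal after each array was divided by its own 75th percentile, so a value of 0 is a signal equal to that percentile. Levels of different miRNAs are not compared, since each depends on its own probe. Group differences are pregnant minus cyclic, tested with limma on the 212 targets detected on at least 4 arrays, with Benjamini-Hochberg adjustment over all 212.

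All 5 porcine members were detected on 8 of 8 arrays and entered the test, and none of them passed it: 0 were higher and 0 lower in pregnancy at an adjusted p under 0.05, and 0 had an unadjusted p under 0.05. Over all tested targets, 11.3% passed (5.19% higher and 6.13% lower in pregnancy), and 34.4% had an unadjusted p under 0.05. That count of 24 targets moved to between 7 (without cyclic replicate 3 or pregnant replicate 4) and 81 (without cyclic replicate 1) with 1 array left out, and the count of members stayed at 0. The median difference of the 5 members was −0.055, beside 0.0038 over the 212 targets. The difference was negative for ssc-miR-15a, ssc-miR-16 and ssc-miR-195 and positive for ssc-miR-15b and ssc-miR-497. The 95% intervals of the 5 members together spanned 0.754-fold to 1.55-fold. Values of the pregnant and cyclic arrays overlapped in 5 of 5 members, whereas they did not overlap in 17% of the tested targets.

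**Figure D1:**
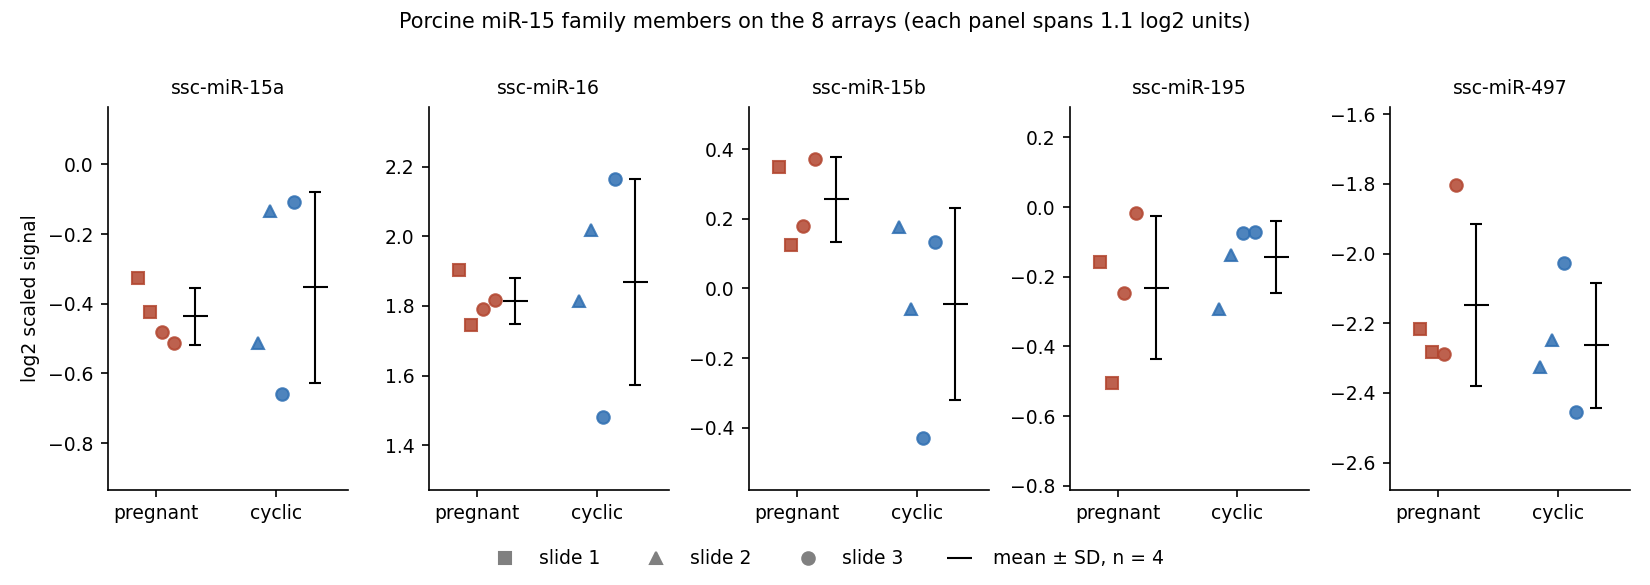
Log2 scaled signal (vertical axis) of the 5 porcine family members on each array, with pregnant arrays in red and cyclic arrays in blue, the slide as the shape of the point, and the mean ± SD in black (n = 4). The groups overlap in every panel, and for ssc-miR-15b all 4 pregnant points lie above the cyclic mean.

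ssc-miR-16 and ssc-miR-15a had the smallest differences of the 5 members, and their intervals do not show that the groups are alike. ssc-miR-16, the member long used as a reference in miRNA assays, read 1.90, 1.74, 1.79 and 1.82 on pregnant replicates 1 to 4, against 1.81, 2.02, 1.48 and 2.16 on cyclic replicates 1 to 4. The pregnant arrays lay inside the cyclic range, with cyclic replicate 3 lowest and cyclic replicate 4 highest of the 8. Its group means were 1.81 ± 0.07 in pregnancy and 1.87 ± 0.30 in the cycle (SD, n = 4 each), a difference of −0.055 ± 0.15 (SE, limma adjusted p = 0.852) with a 95% interval of 0.771-fold to 1.20-fold. ssc-miR-15a, which shares a locus with 1 of the miR-16 genes, read −0.33, −0.42, −0.48 and −0.51 on pregnant replicates 1 to 4, against −0.51, −0.13, −0.66 and −0.11 on cyclic replicates 1 to 4. Here too the pregnant arrays lay inside the cyclic range, with the same arrays at its ends. The difference was −0.083 ± 0.15 (SE, limma adjusted p = 0.758), with a 95% interval of 0.754-fold to 1.18-fold.

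For these 2 miRNAs and ssc-miR-15b, the cyclic arrays spread more widely than the pregnant ones. The SD of ssc-miR-15a was 0.08 in pregnancy and 0.27 in the cycle, and that of ssc-miR-15b was 0.12 in pregnancy and 0.28 in the cycle. The wider spread of the cyclic arrays was not particular to them: the SD was larger in the cycle for 155 of the 212 tested targets (73.1%), with a median of 0.17 in pregnancy and 0.29 in the cycle. In ssc-miR-195 and ssc-miR-497 the pregnant SD was the larger one.

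ssc-miR-15b, the paralog of miR-15a in the SMC4 locus, had the largest difference of the 5 members, and it did not pass the test. It read 0.35, 0.13, 0.18 and 0.37 on pregnant replicates 1 to 4, against 0.18, −0.058, −0.43 and 0.13 on cyclic replicates 1 to 4. All 4 pregnant arrays lay above the cyclic median, but cyclic replicates 1 and 4 read higher than pregnant replicate 2. Group means were 0.26 ± 0.12 in pregnancy and −0.044 ± 0.28 in the cycle (SD, n = 4 each), a difference of 0.30 ± 0.15 (SE, limma adjusted p = 0.180), or 1.23-fold with a 95% interval of 0.981-fold to 1.55-fold. By p-value it stood at place 81 of the 212 targets. The difference depended on the array left out: it was 0.17 without cyclic replicate 3 (adjusted p = 0.377) and 0.37 without cyclic replicate 1 (adjusted p = 0.0572). Scaling over all probes, which raised the median of all targets by 0.30, put it at 0.60 (limma adjusted p = 0.0379), or 0.30 relative to that median.

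ssc-miR-195 and ssc-miR-497, which are neighbours in the genome, did not pass either. ssc-miR-195 read −0.16, −0.51, −0.25 and −0.017 on pregnant replicates 1 to 4, against −0.29, −0.14, −0.074 and −0.071 on cyclic replicates 1 to 4. Both the lowest and the highest of the 8 values were pregnant arrays, replicates 2 and 4. The difference was −0.088 ± 0.13 (SE, limma adjusted p = 0.727), with a 95% interval of 0.769-fold to 1.15-fold. ssc-miR-497 read −2.22, −2.28, −2.29 and −1.80 on pregnant replicates 1 to 4, against −2.33, −2.25, −2.03 and −2.45 on cyclic replicates 1 to 4. Pregnant replicate 4 stood apart from the other pregnant arrays, which lay inside the cyclic range. The difference was 0.12 ± 0.17 (SE, limma adjusted p = 0.705), with a 95% interval of 0.843-fold to 1.39-fold.

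**Figure D2:**
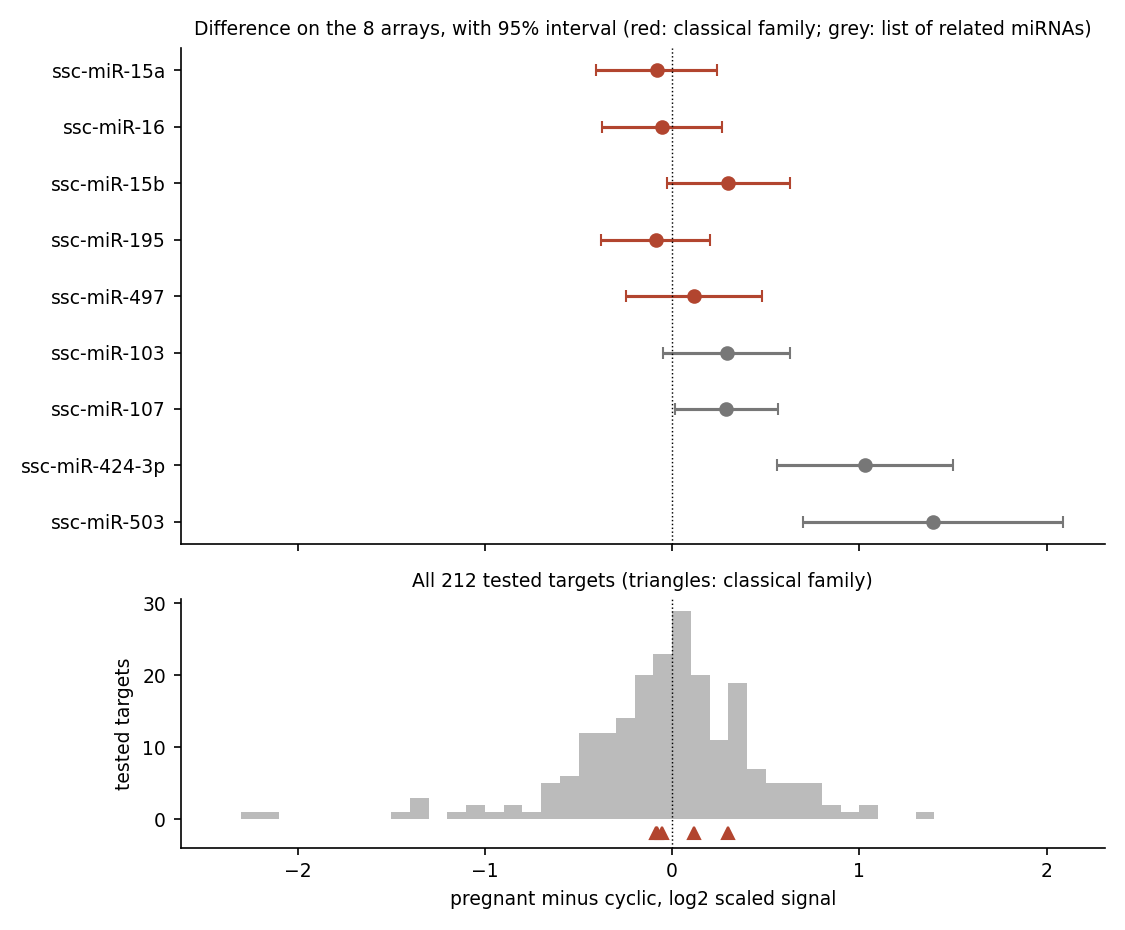
The upper panel gives the pregnant minus cyclic difference in log2 scaled signal (horizontal axis) with its 95% limma interval for the 5 family members (red) and the 4 tested entries of the list of related miRNAs (grey). The lower panel counts the 212 tested targets by the same difference, with the family members as triangles between −0.088 and 0.30, near the middle of the distribution.

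Each porcine member was measured with 2 probes of 10 spots, and the probes of a member gave like differences. The fainter probe gave −0.10 against −0.083 for the brighter one in ssc-miR-15a, −0.064 against −0.055 in ssc-miR-16, 0.29 against 0.30 in ssc-miR-15b and −0.096 against −0.088 in ssc-miR-195. The fainter probe of ssc-miR-497 was well above background on 0 arrays and gave no difference. Of the 10 probes, the other 9 were well above background on all 8 arrays. The coefficient of variation between spots of the brighter probe within an array ran from 2.67% to 10.3%, with a median of 6.22%. The members differed up to 1.40-fold (ssc-miR-195) to 1.74-fold (ssc-miR-15b) between their lowest and highest array. The spread between spots does not measure technical variation between arrays, which was not measured.

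Members of the family were next set against each other on the same array, which asks whether products of 1 locus, or of paralogous loci, changed by different amounts. A ratio within an array does not depend on the scaling between arrays. Its level rests on both probes and is not read, and its difference between groups was tested by a 2-sided exact permutation test over the 8 arrays, in which 70 splits allow no p below 0.0286. The p-values were adjusted over the 4 pairs compared. ssc-miR-15b relative to ssc-miR-16 gave log2 ratios of −1.56, −1.62, −1.61 and −1.45 on pregnant replicates 1 to 4, against −1.64, −2.08, −1.91 and −2.03 on cyclic replicates 1 to 4. All 4 pregnant arrays lay above all 4 cyclic ones, by a narrow margin over cyclic replicate 1. The ratio was 0.35 ± 0.11 higher in pregnancy (SE, n = 4 per group, exact permutation p = 0.0286), or 1.28-fold, and did not pass after adjustment (adjusted p = 0.114). With the other probes of the 2 miRNAs the difference ran from 0.35 to 0.36, but the groups did not overlap in 1 of 4 probe pairs.

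The ratio of ssc-miR-15b to ssc-miR-15a was 0.67, 0.55, 0.66 and 0.88 on pregnant replicates 1 to 4, against 0.69, 0.076, 0.23 and 0.24 on cyclic replicates 1 to 4 (log2). Cyclic replicate 1 lay among the pregnant arrays, and the other 3 cyclic arrays below all of them. The difference of 0.38 ± 0.15 (SE, n = 4 per group) did not pass (exact permutation p = 0.114, adjusted p = 0.229). Without cyclic replicate 1, miR-15b was higher relative to miR-15a by 0.51 and relative to miR-16 by 0.45 on the log2 scale. Leaving out any other array gave 0.30 to 0.43 for the ratio to miR-15a and 0.30 to 0.38 for the ratio to miR-16. No p is read from the fit without cyclic replicate 1, since leaving out the array nearest the pregnant ones sets the groups apart. Within slide 3, which held 2 arrays of each group, the differences were 0.54 for the ratio to miR-15a and 0.44 for the ratio to miR-16.

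The sum of leukocyte miRNAs also set cyclic replicate 1 beside the pregnant arrays. This was not particular to leukocyte miRNAs: ssc-miR-103 (2.00) and ssc-miR-107 (1.87) on that array also lay within the pregnant range. There ssc-miR-503 (−2.15) lay below the pregnant range and ssc-miR-451 (2.84) above it. Without cyclic replicate 1, 81 of the tested targets passed, against 24 with all arrays. The summed level of the leukocyte marker entries (11, of which 6 were tested and 5 were detected on 0 arrays, among them ssc-miR-142-3p) was 0.681 to 0.821 times the 75th percentile on the pregnant arrays, against 0.652 on cyclic replicate 1 and 1.77 to 4.79 on cyclic replicates 2 to 4. Of the 6, 1 passed: ssc-miR-155-5p, which rises in activated lymphocytes and macrophages, was lower in pregnancy (−0.96 ± 0.25, SE, limma adjusted p = 0.0323), a call lost when scan day entered as a block, at −1.14 (adjusted p = 0.0677), and in 7 of 8 fits that left out 1 array (all but the one without cyclic replicate 1). The sum adds signals of different probes, and miR-155 enters it with 2 detected entries, so it is not an amount of leukocyte miRNA. The signal of the myeloid miRNA hsa-miR-223-3p made up a large part of it on each of cyclic replicates 2 to 4, a share that depends on the probes. The gap in summed signal thus rests largely on this 1 miRNA. hsa-miR-223-3p read −2.65, −2.84, −2.68 and −2.74 on pregnant replicates 1 to 4, against −3.16, −0.33, −0.019 and 1.74 on cyclic replicates 1 to 4. It did not pass (−2.29 ± 0.76, SE, limma adjusted p = 0.0767). Of the other 4 tested entries, none passed, while 11.3% of all tested targets did. bta-miR-155, a second entry of miR-155, stood at −0.34 (limma adjusted p = 0.270) and ssc-miR-142-5p at −0.65 (limma adjusted p = 0.349). mmu-miR-342-3p stood at −0.10 and ssc-miR-150 at 0.014. The part of these cells in the ratios was not tested, and in whole tissue fewer cells of a type and less miRNA per cell cannot be told apart.

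Ratios of the other pairs differed less. ssc-miR-15a relative to ssc-miR-16 ran from −2.33 to −2.17 on the pregnant arrays, against −2.33 to −2.14 on the cyclic arrays. Its SD over the 8 arrays was 0.077 log2 units, and its difference was −0.028 ± 0.057 (SE, n = 4 per group, exact permutation p = 0.60, adjusted p = 0.60). ssc-miR-497 relative to ssc-miR-195 ran from −2.06 to −1.78 on the pregnant arrays, against −2.38 to −1.95 on the cyclic arrays. The groups overlapped, and the difference of 0.20 ± 0.12 did not pass (SE, n = 4 per group, exact permutation p = 0.20, adjusted p = 0.267).

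**Figure D3:**
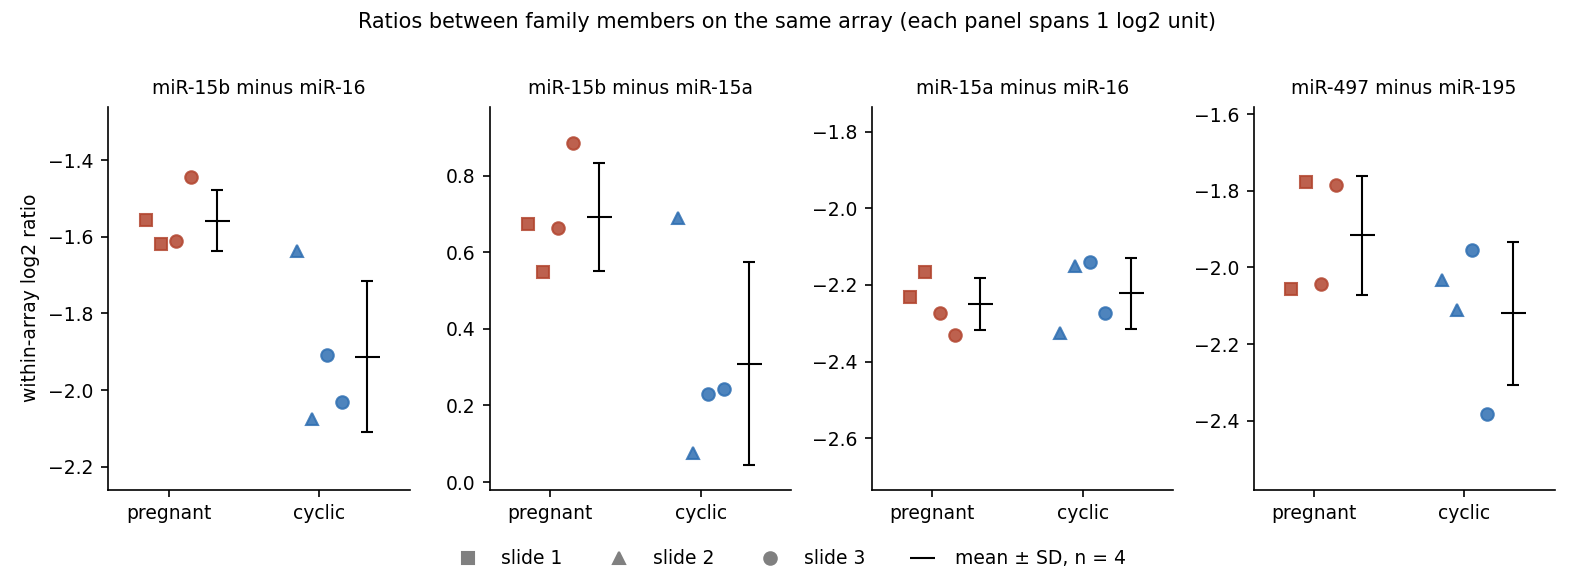
Log2 ratio of 2 family members on the same array (vertical axis) for the 4 pairs compared, with pregnant arrays in red, cyclic arrays in blue, the slide as the shape of the point, and the mean ± SD in black (n = 4). For miR-15b relative to miR-16 the 4 pregnant arrays lie between −1.62 and −1.45, above the 4 cyclic arrays between −2.08 and −1.64, while for miR-15a relative to miR-16 both groups lie between −2.33 and −2.14.

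Across the 8 arrays, ssc-miR-15a and ssc-miR-16 varied together. Their log2 levels had a Pearson r of 0.925 (exact permutation p = 0.000992, adjusted over the 11 correlations computed 0.0109) and a Spearman rho of 0.762 (exact permutation p = 0.0368, adjusted p = 0.404, which does not pass). After leaving out cyclic replicates 2 and 4, the arrays farthest from the median of miR-15a, r was 0.841 over 6 arrays (exact permutation p = 0.0556), so that its call rests in part on those arrays. The r was 0.926 for deviations from the group means, and 0.933 over the 6 arrays of the scan day that held both groups. Slides held 2 to 4 arrays, too few for a value of their own. Both levels share the scaling of their array.

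No other pair of members passed. For ssc-miR-195 and ssc-miR-497, neighbours at 1 locus, r was 0.449 (rho 0.405, exact permutation p = 0.260, adjusted p = 0.573). For ssc-miR-15b and ssc-miR-16 it was 0.486 (rho 0.262, exact permutation p = 0.221, adjusted p = 0.573). That r was 0.753 for deviations from the group means and −0.404 after leaving out cyclic replicates 3 and 4, so that its sign rests on those arrays. For ssc-miR-15b and ssc-miR-15a r was 0.221 (rho −0.0714, exact permutation p = 0.617, adjusted p = 0.880). This r was 0.484 for deviations from the group means and 0.772 after leaving out cyclic replicates 2 and 4, so that its size rests in part on those arrays. ssc-miR-497 ran against ssc-miR-15a with an r of −0.564 (rho −0.524, exact permutation p = 0.133, adjusted p = 0.573), which did not pass either. miR-16 is abundant in red blood cells, so it was also set against the erythroid miRNA ssc-miR-451, which ran from 0.33 to 2.62 on the pregnant arrays, against 0.35 to 2.84 on the cyclic arrays. The r between them was 0.145 (rho −0.0714, exact permutation p = 0.740, adjusted p = 0.880). Of the 4 erythroid entries, 2 were detected on no array. ssc-miR-144 was detected on 4 arrays, with no value above −4.52, near the lower limit of the scale (−4.86).

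**Figure D4:**
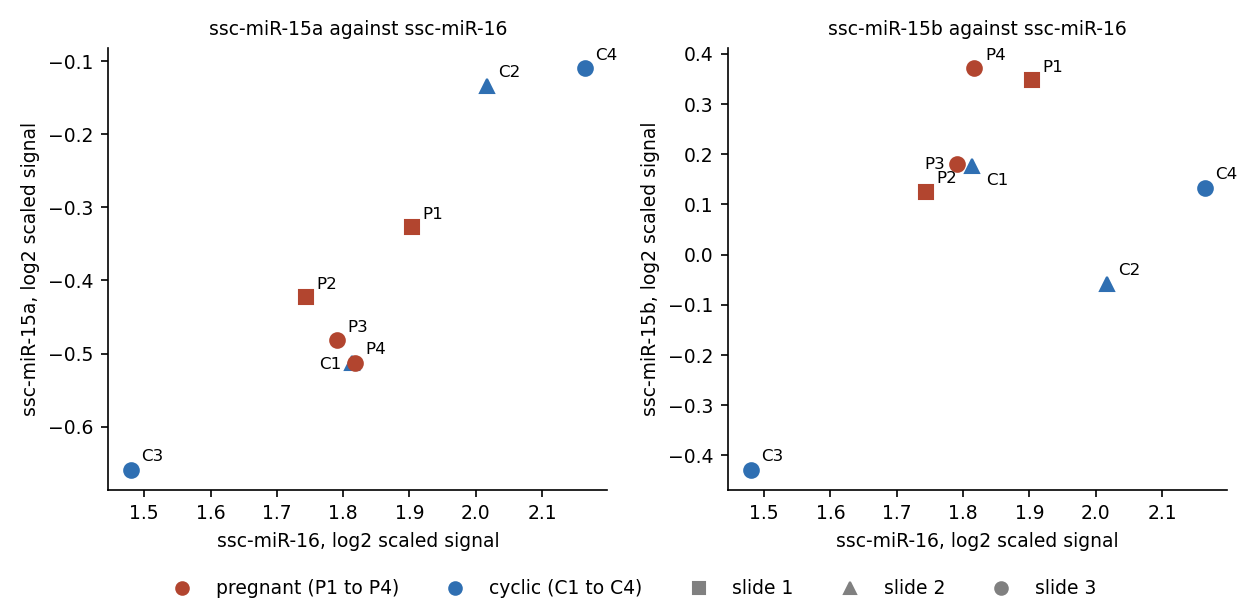
Log2 scaled signal of ssc-miR-15a (left, vertical axis) and ssc-miR-15b (right, vertical axis) against that of ssc-miR-16 (horizontal axis) on the 8 arrays, with pregnant replicates in red (P1 to P4), cyclic replicates in blue (C1 to C4) and the slide as the shape of the point. The left panel follows a line (r = 0.925), and in the right panel (r = 0.486) cyclic replicates 2 and 4, highest for miR-16, lie within or below the pregnant arrays for miR-15b, while cyclic replicate 3 is lowest on both axes.

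The 5 3p entries, which read the strand usually discarded when the precursor is processed, gave no level. Their 20 probes had 5 spots each, and of 800 spots over the 8 arrays 1 was well above background, a spot of hsa-miR-16-2-3p. The share of their spots that the scanner software called positive and significant was 13.6%, beside 25.7% of the negative control spots. hsa-miR-15a-3p alone stood above the negative controls, with 52 of its 160 spots called, of which 32 were among the 40 of its brightest probe. The brightest probe of hsa-miR-15a-3p came nearest to a signal, with intensities of 4.04, 5.33, 3.75 and 2.54 on pregnant replicates 1 to 4, against 2.35, 6.37, 3.37 and 7.32 on cyclic replicates 1 to 4. It exceeded the 95th percentile of the negative control spots, which was 3.41 to 5.11, on 4 of 8 arrays, pregnant replicates 1 and 2 and cyclic replicates 2 and 4. The scanner software called hsa-miR-15a-3p detected on 1 array, and the other 4 entries on none. No probe of hsa-miR-15b-3p, hsa-miR-16-2-3p, hsa-miR-497-3p or mmu-miR-16-1-3p exceeded that percentile on any array. These entries were designed on human or mouse sequences, and a miss says that no signal was well above background with these probes.

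**Figure D5:**
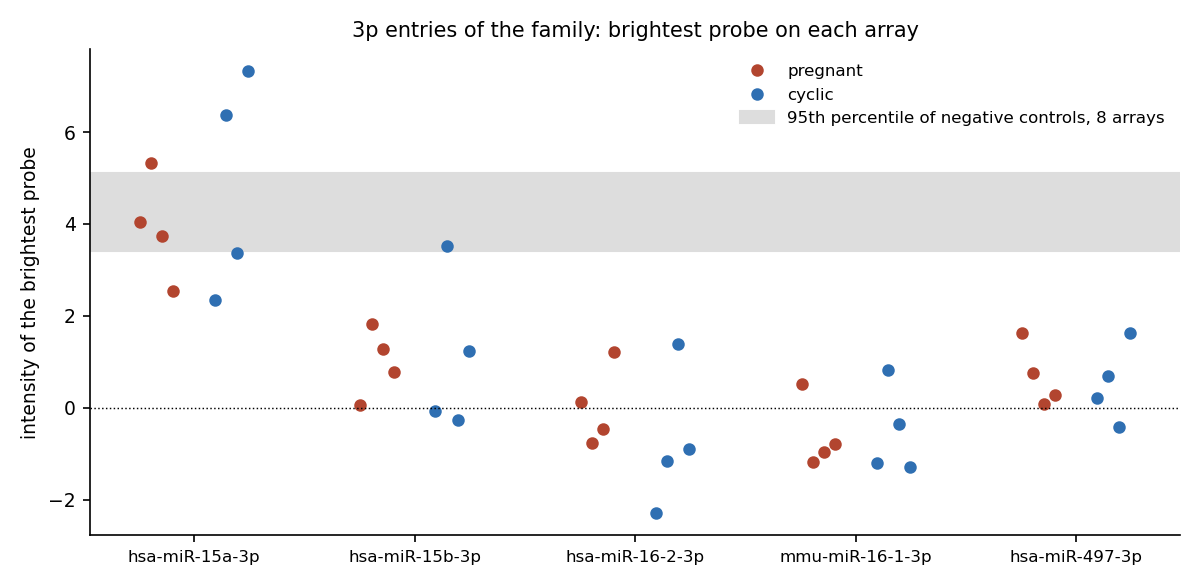
Intensity of the brightest probe (vertical axis, background-subtracted, linear scale) of the 5 3p entries of the family on each pregnant (red) and cyclic (blue) array, with the range over the 8 arrays of the 95th percentile of negative control spots as a grey band. The points of hsa-miR-15a-3p run from 2.35 to 7.32, and those of the other entries from −2.29 to 3.53.

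A list of related miRNAs set the family beside its wider relatives: miR-424 and miR-503, whose guide strands carry the same or a closely similar seed, and miR-103 and miR-107, which hold a shifted form of it and dampen insulin signalling in mice. Of its 6 entries on the array 4 were tested, of which 2 were higher in pregnancy, 0 lower and 2 did not pass. Their median difference was 0.66. Over all tested targets, 5.19% were higher and 6.13% lower. The 2 that rose were ssc-miR-503 (1.39 ± 0.32, SE, limma adjusted p = 0.0225) and ssc-miR-424-3p (1.03 ± 0.21, limma adjusted p = 0.0141). ssc-miR-424-3p is the strand without the family seed, and it was detected on 4 pregnant arrays but 1 cyclic array, the other 3 standing at the floor of the scale, so the size of its difference depends on that floor: doubling the floor gave 0.24 (adjusted p = 0.160), and normexp in place of the scanner's background subtraction gave 0.23 (adjusted p = 0.528). Both calls were lost with scan day as a block, where ssc-miR-503 stood at 1.31 (adjusted p = 0.0908) and ssc-miR-424-3p at 1.00 (adjusted p = 0.0677). With 1 array left out, ssc-miR-503 passed in 4 of 8 fits (not without cyclic replicate 3 or 4 or pregnant replicate 2 or 4) and ssc-miR-424-3p in 6 of 8 (not without cyclic replicate 3 or pregnant replicate 4). ssc-miR-424-5p, the strand with it, was detected on 3 of 4 pregnant arrays and 0 of 4 cyclic arrays and was not tested. The metabolic miRNAs ssc-miR-103 and ssc-miR-107 stood at 0.29 each (SE 0.15 and 0.13, limma adjusted p = 0.217 and 0.135). Whether these differences are larger than those of the classical members was not tested.

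Other miRNAs known to restrain the cell cycle (let-7, miR-98, miR-26 and the miR-34 and miR-449 family) had 12 tested entries of 27. Of these 1 was higher, 0 lower and 11 did not pass, with a median difference of 0.09. Over all tested targets, 5.19% were higher and 6.13% lower. The 1 that rose was hsa-let-7b-5p (0.74 ± 0.20, SE, limma adjusted p = 0.0332). That call was lost with scan day as a block, at 0.76 (adjusted p = 0.121), and with 1 array left out it held in 1 of 8 fits, the one without cyclic replicate 1. Those named for their mean signal, ssc-let-7a at 0.27, ssc-let-7f at 0.10 and ssc-miR-26a at 0.045, did not pass. Of the rest, which ran from −0.10 upward, ssc-let-7c at 0.54 (limma adjusted p = 0.0833) and ssc-let-7e at 0.43 (limma adjusted p = 0.105), named after their values were seen, came nearest. Of the cluster that holds miR-17 and miR-92a, which promotes proliferation, 7 of 10 entries were tested, and 0 were higher and 0 lower, with a median difference of −0.30. Among them ssc-miR-19b stood at −0.30 ± 0.15 (SE, limma adjusted p = 0.168), ssc-miR-17-5p at −0.19, ssc-miR-20a at −0.34 and ssc-miR-19a at −0.34. The exception in sign, named after its value was seen, was ssc-miR-92a at 0.44 ± 0.18 (SE, limma adjusted p = 0.135), the largest difference of the 7 in size. ssc-miR-92a was detected on 6 arrays, with a cyclic mean of −4.40 near the floor of −4.86, so that size may depend on the floor. The classical family, with a median of −0.055, lay between the medians of these 2 lists, and the difference between them was not tested.

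Targets whose pattern over the 8 arrays was most like the mean of the 5 members were ranked among the 207 other tested targets by Pearson r, as a description of 8 arrays that share their scaling. They were hsa-miR-25-3p (r = 0.871), ssc-miR-22-5p (0.781), ssc-miR-146a-5p (0.750), ssc-miR-28-5p (0.743) and hsa-miR-93-5p (0.725). Their own group differences lay between −0.068 and 0.11, and none of these 5 passed. The least alike were mmu-miR-99b-3p (r = −0.763) and ssc-miR-664-3p (r = −0.635). In their spread over the 8 arrays, all 5 members lay below the median target: the SD of log2 signal was 0.16 for ssc-miR-195, 0.19 for ssc-miR-15a, 0.20 for ssc-miR-16 and ssc-miR-497 and 0.25 for ssc-miR-15b, beside a median of 0.26 over the 166 targets detected on all arrays. By increasing SD, ssc-miR-195 stood at place 25, ssc-miR-16 at place 42 and ssc-miR-15b at place 76 of the 166, the last near the middle. With each array scaled by its own miR-16 signal, a setting chosen after seeing the data, 0 of the other 4 members and 7 targets in all passed.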

How the data were processed

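Total RNA (100 ng per sample, integrity number above 8 per the labels) was labelled with Cy3 and read on 1-colour Agilent miRNA arrays. Scanner files were deposited with an intensity for every spot, background-subtracted and detrended by Agilent Feature Extraction (10.7.3.1 per the file headers, 10.7 per the submitters' processing notes). A second deposited table gives 1 value per spot and array. Set against scanner intensity over 2224 spots, its values ran on a log2 scale, centred on each spot's median and running the same way (r 0.877 to 0.973). Its scaling between arrays stays unknown, and the medians of its columns were −0.000302, 9.45e-05, −9.45e-05 and 0.0318 in pregnant replicates 1 to 4, against 0.0108, −0.000283, 0.000689 and −0.000205 in cyclic replicates 1 to 4. The deposited columns of cyclic replicates 2 and 4 are listed as a score, because 3 of their cells exceed 100 and cannot be log2. With those cells read as missing, both were used as log2 values like the other columns. It served as an alternative. miRNAs are named as in the files. No sequence was used.

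Left out were the 715 control spots of each array and 384 to 453 outlier spots. Intensity was averaged over the spots of a probe, divided by the array's 75th percentile (189 to 316) over the targets detected on all arrays, floored at 0.0344 and put on a log2 scale. A probe was detected where a share of 0.5 or more of its spots exceeded background well, and a target where any of its probes was. The brightest probe stood for a target. limma 3.58.1 (lmFit, eBayes with trend, 2-sided, threshold 0.05) was run in R 4.3.3. Python 3.11.15 with matplotlib 3.10.9 drew the figures. The fit and the permutation test were tested on simulated data. Precision is limited by the number of arrays, and p-values measure the spread between samples.

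Members and lists were chosen with earlier results of these data known. Named targets were all members, those of each list that passed or had 1 of its 4 highest mean signals, and the 5 most and 2 least like the members' mean. Alternatives were normexp on median spot and background signals (offset 50), quantile normalization, the percentile over all probes, no scaling, the second table, total gene signal per the scanner, a stricter and no detection filter, the floor halved or doubled, the mean of detected probes, slide and scan day as blocks or restrictions, a replicate block, eBayes without trend and each array left out. Scaling by miR-16, limma for the ratios and scan day for the ratios were chosen after seeing the data. Replicate numbers were not taken as pairs, as set out in the closing section.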

Additional observations from a re-analysis of the deposited data

Results flagged for a closer look

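Of 18 groups of 4 values examined (5 members and 4 ratios in each group), 1 held an array apart from the other 3 by Dixon's test, and chance alone marks about 1 in 20. It was ssc-miR-497 on pregnant replicate 4, at −1.80, while pregnant replicates 1 to 3 read −2.22, −2.28 and −2.29. Without that array the difference of ssc-miR-497 was 0.0013.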

How the results depend on the processing

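The settings are not independent. The detection filters, the floor, the replicate block and eBayes without trend cannot move a member's difference, only its error or its adjusted p. Slide as a fixed block gives the difference of slide 3 alone. In 27 other settings (26 for ssc-miR-16), ssc-miR-15b and ssc-miR-497 kept a positive difference, and no member passed except ssc-miR-15b with scaling over all probes (0.60), where 1 member passed. That scaling raised the median of all targets by 0.30, and with it ssc-miR-15a stood at 0.22, ssc-miR-16 at 0.24, ssc-miR-195 at 0.21 and the median of the members at 0.24. Relative to that shift the first 3 were −0.086, −0.058 and −0.092. With scan day as a block, or on the 6 arrays of scan day 2, ssc-miR-195 was 0.013. These 2 settings give the same difference by design, for every target. The other scan day held only pregnant replicates 1 and 2, so those arrays do not enter a difference blocked by scan day. With the authors' table, miR-15a relative to miR-16 was 0.11. The cause of these changes of sign was not tested. Leaving out each array in turn gave −0.18 to −0.0011 for ssc-miR-15a, −0.18 to 0.044 for ssc-miR-16, 0.17 to 0.37 for ssc-miR-15b, −0.16 to 0.0035 for ssc-miR-195, 0.0013 to 0.20 for ssc-miR-497 and −0.084 to 0.044 for the median of the members. For the ratios it gave 0.30 to 0.45 (miR-15b to miR-16), 0.30 to 0.51 (miR-15b to miR-15a), −0.062 to −0.00028 (miR-15a to miR-16) and 0.12 to 0.26 (miR-497 to miR-195), with 0 members passing throughout.

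The 24 of 212 targets that passed (11 higher, 13 lower) became 62 with scaling over all probes (55 higher, 7 lower), 11 with normexp, 9 without scaling, 10 with the total gene signal, 1 of 686 without a detection filter, 9 with the floor doubled, 9 within slide 3, 2 (0 higher, 2 lower) with scan day as a block, 2 (0 higher, 2 lower) within scan day 2, 7 with scaling by miR-16, and 7 to 81 with arrays left out (81 without cyclic replicate 1). The causes of these moves were not tested. With the replicate block 26 targets and 0 members passed, ssc-miR-15b remaining at 0.30. Deviations from the group means correlated by 0.104, 0.0976, −0.177 and 0.160 between arrays of the same number. On that basis the numbers were not taken as pairs, though such values cannot exclude a pairing by design. As the 3p entries lay at or near background, signal limits what can be said of them.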
